A study of Haemulon flavolineatum and Haemulon macrostomum and Haemulon carbonarium with 36 samples.

Results

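Among the livers of 17 wild *H. flavolineatum*, 6 carried the transcripts of egg proteins in very large amounts and 11 did not, and the 2 sets of livers are compared here over the rest of the transcriptome. A fish was placed in the vitellogenin-high set when its summed counts of 7 vitellogenin isogroups exceeded 10000 per 1000000 of all its counts (written here as total CPM). An isogroup is a cluster of assembled transcripts that stands for 1 gene or a part of it. The fish chosen by these counts were 3, 10, 12, 13, 14 and 18. The lowest fish inside it, fish 3, had a vitellogenin sum of 30623 total CPM, and the highest fish outside it, fish 11, had 1774. These values chose the groups, so the groups come from the counts and not from a label, and the labels of the fish give no sex, maturity or date.

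The livers come from a study of 36 grunts of 3 species that shoal together on Caribbean reefs: 17 *H. flavolineatum*, 8 *H. carbonarium* and 11 *H. macrostomum*, none of which had been treated. They were speared at Bocas del Toro, Panama, within 2 days, and the study's methods state that the gonads were undeveloped, so that the sex of a fish could not be read from them. Each liver gave 1 TagSeq library, a method that sequences 1 short piece from the 3′ part of each messenger RNA, which makes counts independent of gene length. Reads of all fish were mapped to the transcriptome of *H. macrostomum*, with up to 5 matches per read, and counts of near-identical genes may therefore be shared between them.

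In egg-laying fish the liver makes the yolk precursor vitellogenin and, in many bony fishes, the choriogenins that form the inner layer of the egg envelope. Both are secreted into the blood and taken up by, or laid down around, the growing oocyte. Estrogens from the ovary bind their receptor in hepatocytes and switch on these genes, so vitellogenin in the liver or plasma is widely used as a marker of estrogen exposure. Hepatocytes that make vitellogenin are known for an enlarged rough endoplasmic reticulum, where the protein is folded, glycosylated, loaded with lipid and phosphorylated on its way out of the cell.

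Vitellogenin B (isogroup31593) was the main vitellogenin transcript, with 19044, 22329 and 33851 total CPM in the vitellogenin-high fish (lowest, median and highest), against 5.19, 19.4 and 1029 in the other fish. It made up between 59.4% and 65.9% of all vitellogenin counts in the vitellogenin-high livers. Vitellogenin Aa (isogroup7355) had 5751, 7302 and 10048 total CPM in them, against 2.40, 5.85 and 524 in the other fish. By median the third, isogroup57324, named only as a vitellogenin, took 6.65% to 16.5% of the vitellogenin counts, and vitellogenin C (isogroup13507) took 1.24% to 2.34%. Vitellogenin B was first in all 6 fish, while the order below it varied: in fish 13 isogroup57324 (8143 total CPM) lay above vitellogenin Aa (7376). The 3 others, vitellogenin Ab (isogroup15992), a second vitellogenin B (isogroup32209) and isogroup16683, had medians of 313, 157 and 101 total CPM in the vitellogenin-high fish, against 0.450, 0 and 0 in the other fish.

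The egg envelope transcripts went with them. Choriogenin Ha (isogroup3885) had 47728, 77999 and 106513 total CPM in the vitellogenin-high fish, against 27.0, 81.8 and 1770 in the other fish. Choriogenin H (isogroup14) had 16657, 23507 and 36957, against 25.1, 33.3 and 1332. Choriogenin L (isogroup6269) and zona pellucida protein Ba (isogroup23169) had medians of 804 and 96.3 in the vitellogenin-high fish, against 1.498 and 0 in the other fish. One envelope name stood apart: zona pellucida sperm-binding protein 3 (isogroup2893) had 15.7, 24.6 and 57.8 total CPM in the vitellogenin-high fish and 12.1, 37.4 and 54.4 in the other fish, and the groups overlapped over nearly their whole range. The 12 named egg proteins together held 9.53% to 19.4% of all counts in the vitellogenin-high livers, against 0.0110% to 0.495% in the other livers. All of these are a description, since vitellogenin made the groups and the envelope proteins belong to the same set of egg proteins, and all 12 were taken out before scaling and testing.

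**Figure D1:**
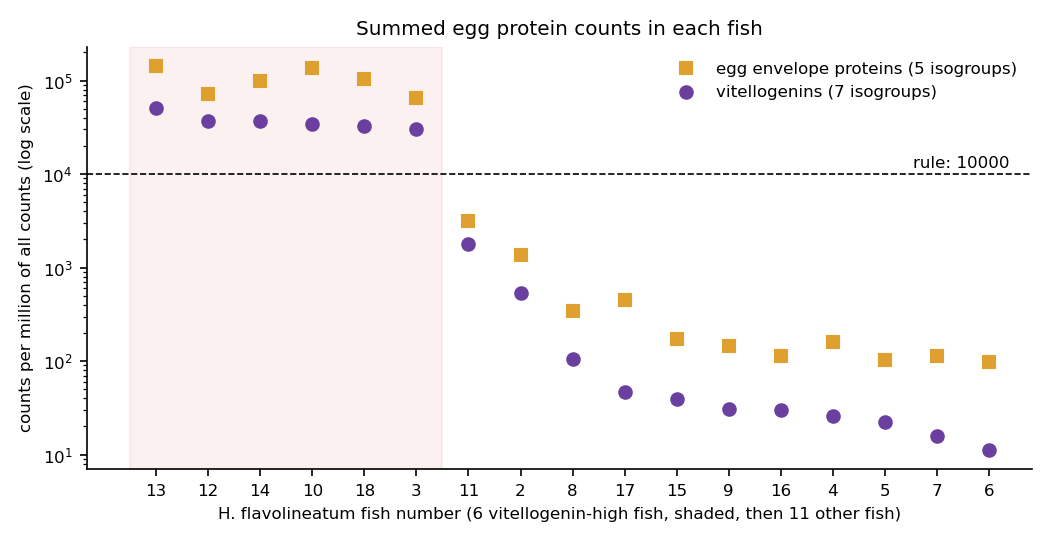
Summed counts of the 7 vitellogenin isogroups (circles) and of the 5 egg envelope isogroups (squares) in each *H. flavolineatum*, in total CPM on a log axis, with the 6 vitellogenin-high fish in the shaded area at the left and the dashed line at 10000. The shaded fish lie between 30623 and 51364 for vitellogenin, and fish 11 (1774) and fish 2 (535) are the next below.

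Total counts ran from 827176 to 2594002 in the vitellogenin-high fish and from 578011 to 2282306 in the other fish (exact permutation test of the means over 12376 splits, two-sided, p = 0.925). Without the egg proteins the median was 1177707 counts in the vitellogenin-high fish, against 1667021 in the other fish (same exact test of the means, p = 0.437), and the median number of isogroups with a count was 21930, against 26253 (p = 0.120). The scaling factors of the other transcripts (TMM, a scaling by trimmed mean) were 0.673 to 1.01 in the vitellogenin-high fish and 0.984 to 1.26 in the other fish. RNA came from liver tissue and not from sorted cells, so fewer cells of a type and less RNA per cell cannot be told apart. The study does not say how much of each liver was taken. The defining hepatocyte markers, 9 isogroups such as apolipoprotein A-I and hemopexin, summed to 6093 to 22989 total CPM in the vitellogenin-high fish, against 24576 to 40581 in the other fish. After scaling without the egg proteins the 7 that were tested summed to 10591 to 35075 CPM, against 23802 to 41754. The 1 marker at 0 in every vitellogenin-high fish, a second AMBP isogroup (isogroup16569), had 1 count in all in the other fish. The 13 exocrine pancreas enzymes, from pancreatic tissue that lies within the liver of many bony fishes, summed to 2715 to 11230 total CPM in the vitellogenin-high fish and 2295 to 16844 in the other fish. The part of these cell types in the results was not tested beyond the fits named below.

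Outside the 12 named egg proteins, 6194 isogroups had counts high enough to test, 1030 of them with a protein name. Whether egg protein transcripts without a name are among them was not tested. At an edgeR quasi-likelihood adjusted p (Benjamini-Hochberg over all 6194) under 0.01, 62 rose in the vitellogenin-high livers, which is 1.0% of those tested, and 20 fell, which is 0.323%. Both directions together made 82 calls (1.32%), and an adjusted p under 0.05 gave 212 (3.42%). Among the named isogroups 13 rose (1.26%) and 6 fell (0.583%). DESeq2, given the same isogroups, called 134 higher (2.17%) and 103 lower (1.66%) of the 6188 it gave an adjusted p, all 82 among them, and at an unadjusted edgeR p under 0.05 there were 495 higher (7.99%) and 547 lower (8.83%). Of the 1030 named isogroups 93 were higher (9.03%) and 160 lower (15.5%) at that p. DESeq2 called 27 of these 1030 higher and 46 lower. The isogroups that rose did so by a median log2 fold change of 2.41, and 21 of the 62 by 8-fold or more. The median of the 20 that fell was -1.55, and the median of all tested isogroups was 0.00. In 28 of those that rose the lowest vitellogenin-high fish lay above the highest other fish, and in 8 of those that fell the highest lay below the lowest. Over all tested isogroups such a separation was seen for 30 (0.484%) and 23 (0.371%). The adjusted p says how an isogroup goes with a split that was itself made from counts of the same livers, and is no test of a treatment. The count filter used the split, so an isogroup could be tested because of the fish of 1 set alone. Nothepsin, S43A3, a reticulon, MIC10, NADPH-cytochrome P450 reductase, isogroup17733, isogroup38065 and isogroup74204 were among those kept only through the vitellogenin-high fish. So was mannose-P-dolichol utilization defect 1 protein, and myoglobin would not have been kept without these fish. PAPS1, UDP-glucuronosyltransferase 2B4, carboxylic ester hydrolase, isogroup23986 and isogroup17315 were among those kept only through the other fish. For all of these the p and any separation are a description.

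How many isogroups fell depends on single fish. Leaving out 1 fish at a time gave 48 to 73 isogroups that rose and 9 to 26 that fell, and the second number was 12 or less without any one of fish 2, 3, 4, 5, 6, 7, 8, 9, 10, 12, 13, 14 or 15. Over these 17 fits, 41 of the 62 and 5 of the 20 were called every time, and all 82 kept their direction. With the summed pancreas enzymes as a covariate, 33 rose and 5 fell. Of the 19 named calls that fit lost 9, at edgeR adjusted p of 0.0130 to 0.0550: carboxylic ester hydrolase, choline/ethanolamine kinase, glycolipid transfer protein domain containing 2, hemopexin, interferon-related developmental regulator 1, myoglobin, NADPH-cytochrome P450 reductase, very long-chain acyl-CoA synthetase and zinc-binding protein A33. The same 9 and MIC10 were lost without fish 12 and 13 (0.0178 to 0.0967), an alternative chosen after seeing the data that leaves 4 vitellogenin-high fish. With all 36 fish in 1 fit 4 were lost, among them nuclear protein 1 at 0.0105.

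**Figure D2:**
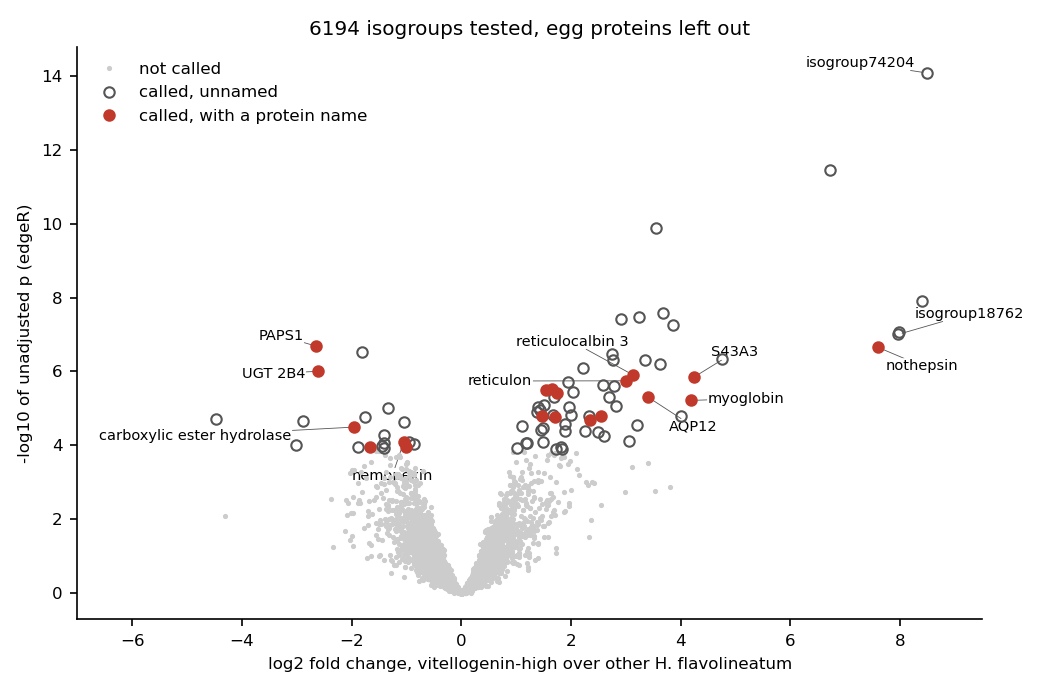
Each point is 1 of 6194 tested isogroups, with the log2 fold change of vitellogenin-high over other *H. flavolineatum* on the x axis and the −log10 of the unadjusted edgeR p on the y axis. The 82 called isogroups are drawn as open circles where unnamed and as red points where named, and the 21 isogroups that rose by 8-fold or more stand far to the right, nothepsin among them at 7.59.

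Nothepsin (isogroup5747) rose more than any other isogroup with a protein name. It is an aspartic protease related to cathepsin D and was described in zebrafish as a protease of the female liver. The vitellogenin-high fish had 784, 1250 and 2998 CPM after scaling without the egg proteins (lowest, median and highest; written as CPM from here on), against 0, 1.41 and 69.2 in the other fish. No other fish came near the lowest vitellogenin-high fish, and the 2 other fish with the most were fish 11 with 69.2 and fish 2 with 13.9. The log2 fold change was 7.59 ± 1.0 (SE; edgeR adjusted p = 0.000114), and 9.52 without fish 11. Nothepsin passed the count filter only through the vitellogenin-high fish, so its p and its separation of the groups are a description. The other 4 proteases on the same list of egg-linked liver proteins did not pass the test: cathepsin B, cathepsin D, cathepsin H and cathepsin Z, lysosomal proteases of which D cleaves vitellogenin in the oocyte, had log2 fold changes of -0.57, -0.29, -0.14 and -0.07. Fish-egg lectin, the sixth on the list, had too few counts to test, 1 in the vitellogenin-high fish and 4 in the other fish.

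Reticulocalbin 3, a reticulon and MIC10 were 3 of the 13 named isogroups that rose. Reticulocalbin 3 (isogroup371), a calcium-binding protein in the lumen of the endoplasmic reticulum that assists the maturation of secreted proteins, had 172, 467 and 600 CPM in the vitellogenin-high fish, against 17.1, 28.4 and 204 in the other fish. Only fish 11, with 204, reached into the range of the vitellogenin-high fish. Its log2 fold change was 3.12 ± 0.46 (edgeR adjusted p = 0.000361). A reticulon (isogroup9692), from a family that bends the membrane of the endoplasmic reticulum into tubules, had 13.7, 41.0 and 64.1 CPM, against 0.799, 3.15 and 12.3, with no overlap and a log2 fold change of 3.0 ± 0.46 (edgeR adjusted p = 0.000483). MIC10 (isogroup14624), which shapes the cristae of mitochondria, had 15.7, 27.1 and 47.8 CPM, against 1.61, 3.78 and 24.6, where fish 11 held the 24.6 and the next of the other fish had 6.79. Its log2 fold change was 2.34 ± 0.43 (edgeR adjusted p = 0.00245, and 0.0128 without fish 14). The reticulon and MIC10 passed the count filter only through the vitellogenin-high fish, so their values are a description.

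Reticulocalbin 3 was alone on its list. Of 10 tested isogroups for protein folding and quality control in the endoplasmic reticulum it was the 1 that rose, and the median of the list was -0.10. Over all named isogroups tested, 1.26% rose and 0.583% fell. A protein disulfide-isomerase (isogroup3137) had a log2 fold change of 1.11 ± 0.43 (edgeR adjusted p = 0.178) with 75.6 CPM in fish 12 and at most 27.8 in the 5 other vitellogenin-high fish. Calreticulin, a calcium-binding chaperone of the same compartment, was at -0.16. For translocation into the endoplasmic reticulum and transport through coats and Golgi, 0 of 17 tested members passed, 0 had an unadjusted edgeR p under 0.05, 0 were called by DESeq2, and the median was -0.14. At that unadjusted p 9.03% of all named isogroups tested were higher and 15.5% lower. N-glycosylation gave 0 calls of 10 by edgeR and 1 by DESeq2, which was higher, beside 27 of the 1030 named isogroups that DESeq2 called higher. At an unadjusted edgeR p under 0.05, 3 were higher and 3 lower, beside 9.03% and 15.5% of all named isogroups tested. The lowest p among these 10 was that of mannose-P-dolichol utilization defect 1 protein (isogroup2698), needed to use the sugar donors of glycosylation, with 10.4, 16.9 and 39.95 CPM in the vitellogenin-high fish, against 0, 6.39 and 11.5 in the other fish, and a log2 fold change of 1.95 ± 0.45 (edgeR adjusted p = 0.0184). Isogroup2698 passed the count filter only through the vitellogenin-high fish, so its p and fold are a description.

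A water channel and a solute carrier rose as well. Aquaporin 12 (isogroup2613, AQP12), a water channel that in mammals sits inside the acinar cells of the pancreas, had 88.3, 387 and 656 CPM in the vitellogenin-high fish, against 9.18, 15.3 and 159 in the other fish. The highest other fish was again fish 11. Its log2 fold change was 3.40 ± 0.56 (edgeR adjusted p = 0.000932), and 4.10 without fish 11. The 9 tested enzymes of the exocrine pancreas had log2 fold changes between -0.94 and -0.01 in the same fish. With their sum as a covariate AQP12 was called, and the part of pancreatic tissue in its level was not tested. S43A3 (isogroup1412), a solute carrier for which transport of purine bases is known in humans, had 15.7, 27.3 and 54.0 CPM, against 0, 0 and 10.8. Of the 11 other fish 6 had no count, and fish 11 was highest. The log2 fold change was 4.24 ± 0.63 (edgeR adjusted p = 0.000399), and 5.35 without fish 11. S43A3 passed the count filter only through the vitellogenin-high fish, so its p and fold are a description. On the list of solute carriers and aquaporins, to which S43A3 does not belong by its short name, 1 of 17 tested members rose, 0 fell and the median was 0.13. Of all named isogroups tested 1.26% rose and 0.583% fell.

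Of the genes linked to lipids, a kinase of choline and ethanolamine and a glycolipid carrier rose. Choline/ethanolamine kinase (isogroup1504), the first step in making phosphatidylcholine and phosphatidylethanolamine, had 15.9, 50.4 and 132 CPM in the vitellogenin-high fish, against 1.41, 8.29 and 24.6 in the other fish. The groups overlapped slightly, and the log2 fold change was 2.55 ± 0.46 (edgeR adjusted p = 0.00213, and 0.0158 without fish 13). Glycolipid transfer protein domain containing 2 (isogroup3840), from a family that carries glycolipids between membranes, had 27.8, 51.8 and 77.2 CPM, against 7.56, 14.7 and 26.9, without overlap (log2 fold change 1.74 ± 0.28, edgeR adjusted p = 0.000793). Apolipoprotein B-100 (isogroup4685), the frame of very low density lipoproteins, had 16.3, 28.4 and 60.9 CPM, against 6.42, 13.5 and 20.9, and missed the threshold (log2 fold change 1.18 ± 0.27, edgeR adjusted p = 0.0148). A second apolipoprotein B-100 isogroup (isogroup701), with more counts, had 86.1, 128 and 185 CPM, against 60.9, 94.0 and 128 (log2 fold change 0.40 ± 0.21, edgeR adjusted p = 0.363). Apolipoprotein M (isogroup7657), carried on high density lipoproteins, had 513, 615 and 747 CPM, against 736, 1043 and 1583, and missed it as well (log2 fold change -0.84 ± 0.20, edgeR adjusted p = 0.0217). Of the 12 tested isogroups for lipoproteins and lipid carriage 0 were called by edgeR, and DESeq2 called 2 higher and 1 lower. At an unadjusted edgeR p under 0.05, 2 were higher and 3 lower, beside 9.03% and 15.5% of all named isogroups tested. DESeq2 called 27 of the 1030 named isogroups higher and 46 lower.

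On the side of fatty acid breakdown, very long-chain acyl-CoA synthetase (isogroup9), which activates long fatty acids for the peroxisome and for bile acid making, had 145, 179 and 578 CPM in the vitellogenin-high fish, against 225, 765 and 1195 in the other fish. Fish 18, with 578, and fish 11, with 225, lay on the far side of their own groups. The log2 fold change was -1.67 ± 0.35 (edgeR adjusted p = 0.0089), and the adjusted p was 0.0116 to 0.0301 without any one of 14 fish, those other than 9, 11 and 18. Acyl-coenzyme A thioesterase 4 (isogroup157), a peroxisomal enzyme, was at -1.01 ± 0.24 (edgeR adjusted p = 0.0227). The 15 tested members of the list of fatty acid oxidation and peroxisome held 0 that rose and 1 that fell, with a median of -0.15. Over all named isogroups tested the shares were 1.26% and 0.583%.

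Among genes of translation and stress, 3 rose by about 3-fold. Eukaryotic translation initiation factor 4E binding protein 3 (isogroup2514), which binds the cap-binding factor and holds back translation, had 171, 289 and 494 CPM in the vitellogenin-high fish, against 46.6, 87.1 and 186 in the other fish (log2 fold change 1.65 ± 0.26, edgeR adjusted p = 0.000695). Nuclear protein 1 (isogroup7122), a small chromatin protein induced by cell stress, had 393, 684 and 902 CPM, against 83.6, 217 and 337. Its groups did not overlap, and the log2 fold change was 1.55 ± 0.24 (edgeR adjusted p = 0.000695). Interferon-related developmental regulator 1 (isogroup540), a transcriptional co-regulator that is also induced by stress, had 27.8, 44.3 and 93.3 CPM, against 11.9, 16.2 and 28.9 (log2 fold change 1.48 ± 0.26, edgeR adjusted p = 0.00213, and 0.0130 without fish 13). Translation initiation and elongation factors as a list stood at a median of 0.05, which turned to -0.03 under upper-quartile scaling. Of the 17 tested 1 was called, higher, beside 1.26% called higher of all named isogroups tested. The 7 tested cytosolic ribosomal proteins all had positive log2 fold changes, from 0.10 to 0.71, beside 412 of 1030 over all named isogroups tested. Of the 7, 0 were called by edgeR, 1 by DESeq2, and 1 had an unadjusted edgeR p under 0.05. DESeq2 called 27 of the 1030 named isogroups higher.

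The 2 deepest falls among the 6 named isogroups called lower were those of a supplier of sulfate for conjugation and of a conjugating enzyme. PAPS1 (isogroup1935), the synthase of the sulfate donor that all sulfotransferases use, had 6.30, 27.3 and 54.7 CPM in the vitellogenin-high fish, against 87.6, 177 and 250 in the other fish. No fish of either group reached into the other, and the log2 fold change was -2.65 ± 0.35 (edgeR adjusted p = 0.000114). UDP-glucuronosyltransferase 2B4 (isogroup473), whose human namesake joins glucuronic acid to bile acids and steroids, had 6.52, 56.3 and 97.5 CPM, against 150, 341 and 491. Fish 11 was the lowest of the other fish at 150, still above all vitellogenin-high fish, and the log2 fold change was -2.61 ± 0.38 (edgeR adjusted p = 0.000307). Both were called without each fish in turn and under each of the other alternatives. PAPS1 and this transferase passed the count filter only through the other fish, where they were higher, so their p and separation are a description. In contrast, NADPH-cytochrome P450 reductase (isogroup200), the electron donor of all microsomal P450 enzymes, had 11.5, 21.1 and 48.7 CPM, against 4.05, 5.94 and 13.1 (log2 fold change 1.71 ± 0.31, edgeR adjusted p = 0.00213). The adjusted p was 0.0336 with the pancreas enzymes as a covariate. This reductase passed the count filter only through the vitellogenin-high fish, so its values are a description. Over the 32 tested members of the list of cytochrome P450 and conjugation enzymes, to which PAPS1 does not belong, 1 rose and 1 fell, and the median was -0.28. Among all named isogroups tested 1.26% rose and 0.583% fell. At an unadjusted edgeR p under 0.05, 7 were higher and 9 lower. The shares at that p were 7.99% higher and 8.83% lower over all tested isogroups, and 9.03% and 15.5% over the named ones.

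The other 3 named isogroups that fell were called by a smaller margin. Carboxylic ester hydrolase (isogroup180), a family that includes the liver carboxylesterases, had 2.17, 11.7 and 16.1 CPM in the vitellogenin-high fish, against 21.1, 36.7 and 69.4 in the other fish, without overlap (log2 fold change -1.95 ± 0.37, edgeR adjusted p = 0.00349, 0.0129 without fish 3 and 0.0118 without fish 12). This hydrolase passed the count filter only through the other fish, so its p and separation are a description. Hemopexin (isogroup1477), the plasma carrier of free haem and 1 of the hepatocyte markers, had 2005, 4475 and 5946 CPM, against 6777, 9121 and 11102. Its groups did not overlap, and the log2 fold change was -1.05 ± 0.21 (edgeR adjusted p = 0.00759). That p lay between 0.01003 and 0.0251 without any one of fish 2, 4, 5, 6, 7, 8, 9, 10, 13, 14, 17 or 18, and the call was also lost under upper-quartile factors (0.0114), without a count filter (0.0975) and without fish 11 and 2 together (0.0121). Zinc-binding protein A33 (isogroup2572), described first from the nuclei of newt oocytes, had 311, 344 and 562 CPM, against 444, 747 and 1048 (log2 fold change -1.0 ± 0.21, edgeR adjusted p = 0.0089). Without any one of 15 fish, those other than 16 and 18, it lay between 0.01003 and 0.0309, and it was 0.0107 with DESeq2 size factors, 0.0433 without a count filter and 0.0225 without fish 11 and 2 together.

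**Figure D3:**
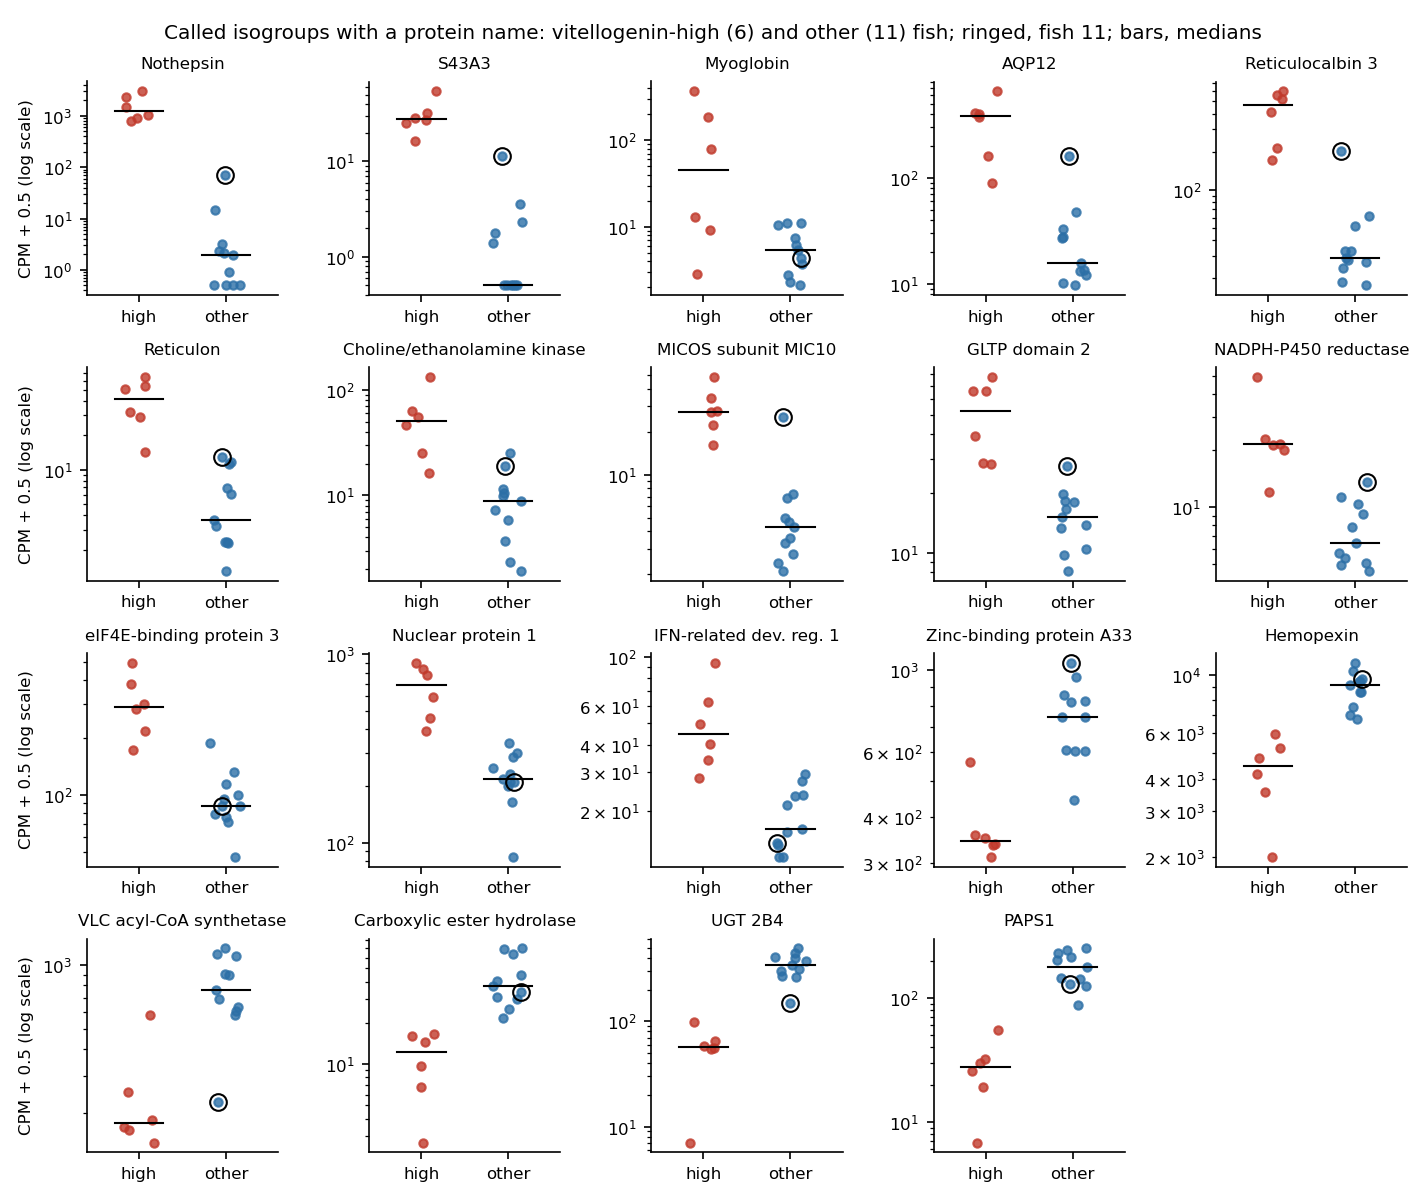
Level of each of the 19 called isogroups with a protein name, in CPM plus 0.5 on log axes, with the 6 vitellogenin-high fish at the left of each panel (red) and the 11 other fish at the right (blue), bars at the medians and fish 11 ringed. Fish 11 is the highest other fish for nothepsin (69.2 CPM), S43A3, AQP12, reticulocalbin 3 and MIC10, and the lowest for UDP-glucuronosyltransferase 2B4 (150 CPM).

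Myoglobin (isogroup2967), the oxygen store of muscle that some fishes also make in liver, differed by a few fish. It had 2.35, 45.3 and 368 CPM in the vitellogenin-high fish, against 1.61, 4.95 and 10.7 in the other fish, with 368 in fish 13, 183 in fish 12 and 78.2 in fish 10. The remaining vitellogenin-high fish, 14, 18 and 3, had 2.35, 8.70 and 12.4 and lay within or close to the range of the other fish. The log2 fold change was 4.19 ± 0.70 (edgeR adjusted p = 0.00111). Without fish 13 it was 3.20, and without both fish 13 and fish 12 it was 2.09 (edgeR adjusted p = 0.0967), an alternative chosen after these values were seen. Myoglobin would not have passed the count filter without the vitellogenin-high fish, so its p and fold are a description. The other 3 muscle markers, 2 troponins and a myosin light chain, had 5 counts in all in the vitellogenin-high fish and 33 in the other fish, and both troponin C and the myosin light chain were at 0 in every vitellogenin-high fish.

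Because estrogen drives vitellogenin, every member of the list of genes that carry, sense or convert steroid hormones is given, tested or not. Of 21 such isogroups 14 had enough counts, and 0 of them passed the edgeR threshold, while 0 were higher and 6 lower at an unadjusted p under 0.05 and DESeq2 called 2 lower. Their median was -0.38, against -0.12 over all 1030 named isogroups tested. At an unadjusted edgeR p under 0.05, 8.83% of all tested isogroups and 15.5% of the named ones were lower, and DESeq2 called 46 of the 1030 named ones lower. Sex hormone-binding globulin (isogroup685), the plasma carrier of sex steroids, had 191, 425 and 506 CPM in the vitellogenin-high fish, against 516, 578 and 791 in the other fish. The groups did not overlap, but the log2 fold change of -0.68 ± 0.20 did not pass (edgeR adjusted p = 0.0669). For 3-oxo-5-beta-steroid 4-dehydrogenase (isogroup1517), which reduces steroid hormones and bile acid precursors, the levels were 67.2, 160 and 186 CPM, against 188, 282 and 346, again without overlap (log2 fold change -0.91 ± 0.22, edgeR adjusted p = 0.0251). These were the 2 that DESeq2 called.

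The rest of that list was called by neither tool. Corticosteroid-binding globulin (isogroup2197) was at -0.73 ± 0.28, and 2 enzymes that interconvert estradiol and estrone or their androgen counterparts, 17 beta hydroxy steroid dehydrogenase 3 (isogroup614) and estradiol 17-beta-dehydrogenase 2 (isogroup1868), were at -0.85 ± 0.33 and -0.60 ± 0.25. A second 3-oxo-5-beta-steroid 4-dehydrogenase (isogroup2887) was at -0.63 ± 0.23 and another (isogroup31221) at -0.29 ± 0.46. Estradiol 17-beta-dehydrogenase 12 (isogroup778) was at -0.46 ± 0.28. The remaining 6 lay between -0.13 and 0.39: membrane-associated progesterone receptor component 1, hydroxysteroid (11-beta) dehydrogenase 1, nuclear receptor coactivator 4, specifically androgen-regulated protein, carbonyl reductase 20beta-hydroxysteroid dehydrogenase and steryl-sulfatase, which frees steroids from their sulfates and was highest. An androgen receptor fragment (isogroup8123) had too few counts to test, 41 in 6 of 6 vitellogenin-high fish and 25 in 8 of 11 other fish, and the glucocorticoid receptor (isogroup5531) had 13 and 36. Also untested, nuclear receptor-interacting protein 1 had 43 and 97 counts, nuclear receptor coactivator 2 had 32 and 85, and nuclear receptor coactivator 5 had 1 and 0. More isogroups of 3-oxo-5-beta-steroid 4-dehydrogenase, isogroup8686 and isogroup68116, had 24 and 87, and 1 and 1. Estrogen receptors were not analysed here.

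Plasma proteins other than hemopexin leaned to lower levels without passing the test one by one. Of 29 tested complement isogroups 0 were called by edgeR, 13 were lower and 0 higher at an unadjusted p under 0.05, DESeq2 called 4 lower, and the list's median was -0.60. At that unadjusted p 15.5% of the named isogroups and 8.83% of all tested ones were lower, and DESeq2 called 46 of the 1030 named isogroups lower. Complement C3 (isogroup750), the central protein of the cascade, had 160, 219 and 441 CPM in the vitellogenin-high fish, against 257, 547 and 898 in the other fish (log2 fold change -1.17 ± 0.30, edgeR adjusted p = 0.0305). Several isogroups are named as C3, but their sequences were not compared, and how reads were shared out among them is uncertain. Of 34 plasma protease inhibitors and clotting proteins, a list that also holds hemopexin, 0 rose, 1 fell and 28 had a negative log2 fold change, with a median of -0.33, beside 618 of 1030 negative and a median of -0.12 over all named isogroups tested. Of those 1030, 1.26% rose and 0.583% fell. Alpha-2-macroglobulin (isogroup8563), a broad protease inhibitor, was at -1.02 ± 0.27 (edgeR adjusted p = 0.0371). The sums of the hepatocyte markers that are lower in the same fish are given above, and their part in these lists was not tested.

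All 8 tested proteasome isogroups had a negative log2 fold change, from -1.53 to -0.17 with a median of -0.80. By edgeR 0 were called, 5 were lower at an unadjusted p under 0.05, and DESeq2 called 3 lower. Over all 1030 named isogroups tested, 15.5% were lower at that unadjusted p and DESeq2 called 46 lower. Proteasome maturation protein (isogroup8387), which helps to assemble the core particle, had 13.9, 21.9 and 45.6 CPM in the vitellogenin-high fish, against 39.4, 54.9 and 74.9 in the other fish (log2 fold change -1.09 ± 0.26, edgeR adjusted p = 0.0224). The 10 kDa heat shock protein of mitochondria (isogroup9461), a co-chaperone, had 17.2, 29.0 and 50.5 CPM, against 53.0, 80.0 and 183. It did not overlap and just missed the threshold (log2 fold change -1.49 ± 0.32, edgeR adjusted p = 0.0104). Of 37 subunits of the respiratory chain and ATP synthase 31 were negative with a median of -0.23, beside 618 of 1030 over all named isogroups tested. By edgeR or DESeq2 0 of the 37 were called. At an unadjusted p under 0.05 there were 3 lower, a smaller share than over all tested isogroups (8.83%) or the named ones (15.5%).

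Among immune lists without a call by edgeR, lymphocyte and leucocyte proteins had a median of -0.38 over 12 tested isogroups, with 1 called lower by DESeq2. At an unadjusted edgeR p under 0.05, 3 were lower, beside 15.5% of all named isogroups tested. DESeq2 called 46 of the 1030 named isogroups lower. As a sum, the 44 isogroups of that list were at 260 to 516 total CPM in the vitellogenin-high fish and 520 to 1480 in the other fish. After scaling without the egg proteins the groups overlapped: the 12 that were tested summed to 374 to 750 CPM, against 451 to 1328. Hepcidin (isogroup12503), the hormone that limits iron uptake and an antimicrobial peptide, had a log2 fold change of 3.40 ± 0.79 (edgeR adjusted p = 0.0177), but its levels of 4.20, 17.5 and 765 CPM in the vitellogenin-high fish, against 6.42, 16.96 and 50.2 in the other fish, show that the medians were nearly equal. Fish 3 with 765 and fish 14 with 495 were the 2 high ones. A second hepcidin isogroup (isogroup13090) had 95.5 to 280 CPM in the vitellogenin-high fish and 129 to 378 in the other fish, and was not called.

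**Figure D4:**
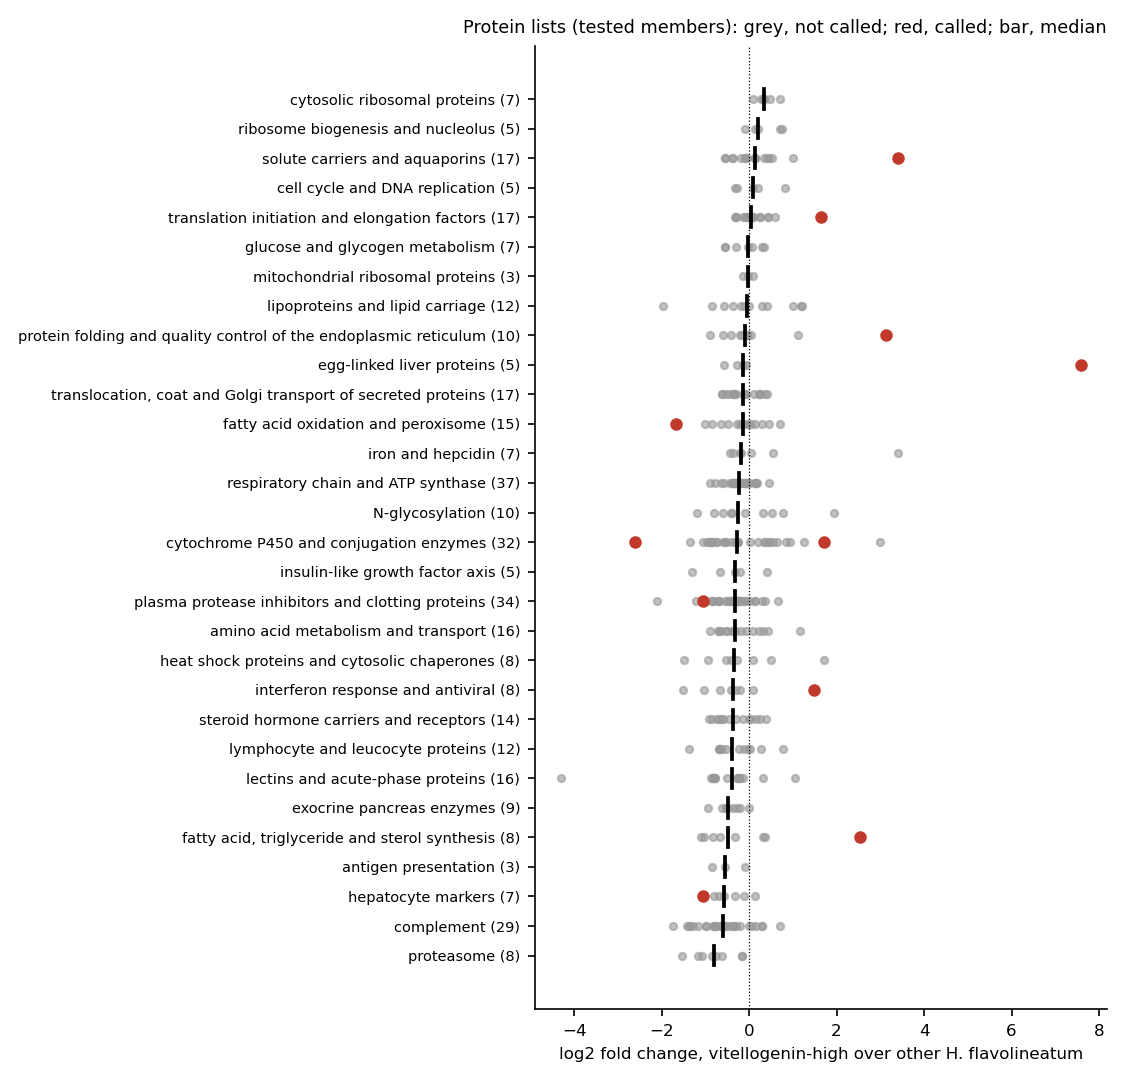
Log2 fold change of vitellogenin-high over other *H. flavolineatum* for the tested members of each protein list with 3 or more of them, the number in brackets, with called members in red and bars at the medians. The medians run from -0.80 for the proteasome to 0.33 for cytosolic ribosomal proteins, and single called members such as nothepsin lie far from the medians of their lists.

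Most of the isogroups that rose have no protein name: 49 of the 62, and 14 of the 20 that fell. Isogroup74204 had 80.7, 85.5 and 150 CPM in the vitellogenin-high fish, against 3 counts in all in the other fish, 8 of which had none (log2 fold change 8.49 ± 0.43, edgeR adjusted p = 5.17e-11, a fold that depends on the prior count of the fit). With so few counts in the other fish, isogroup74204 passed the count filter only through the vitellogenin-high fish. Its separation of the groups is therefore a description, and fish 11 was at 0.769 CPM. The deepest falls were isogroup23986, with 0, 0 and 1.74 CPM against 0, 7.37 and 14.7 (-4.46 ± 0.81, edgeR adjusted p = 0.00236), and isogroup17315, with 0, 1.83 and 6.96 CPM against 2.31, 13.96 and 38.3 (-3.01 ± 0.62, edgeR adjusted p = 0.00814). These 2 isogroups passed the count filter only through the other fish, where they were higher, so their falls are a description as well. Both lost the call without some of the fish: the first without fish 3 or 14, the second without any one of fish 3, 6, 7, 8, 9, 10, 12, 13, 14, 15 or 17. With the pancreas enzymes as a covariate their adjusted p was 0.0125 (isogroup23986) and 0.0163 (isogroup17315).

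Unnamed isogroups also included very abundant ones, of which 5 are named here after their values were seen. Isogroup18762 held 42021 to 139270 total CPM in the vitellogenin-high fish and 43.6 to 4165 in the other fish. Set against choriogenin Ha in the same fish, the ratio of counts was 0.793 to 1.497 in the vitellogenin-high fish and 0.714 to 6.18 in the other fish. The ranges of the ratio overlapped while the levels ran over more than 3 orders of magnitude, and the ratio varied most among the other fish. Isogroup17733, at 0.0705 to 0.142 of choriogenin Ha against 0.0143 to 0.198, and isogroup38065, at 0.0266 to 0.0616 against 0.00952 to 0.141, also had overlapping ratios. The ratios of the other fish rest on few counts, such as 2 of isogroup38065 in fish 5. Median ratios of isogroup18762, isogroup17733 and isogroup38065 were 1.34, 0.101 and 0.0447 in the vitellogenin-high fish, against 1.52, 0.105 and 0.0444 in the other fish. The log2 fold changes of isogroup18762, isogroup17733 and isogroup38065 were 7.96 ± 1.0, 8.40 ± 0.93 and 7.98 ± 0.99, and each was over 9 without fish 11. Isogroup17733 and isogroup38065 passed the count filter only through the vitellogenin-high fish, so their values are a description. Whether these 3 isogroups are pieces of egg protein transcripts was not tested. Isogroup33148 was less steep, with 2305, 6918 and 9645 CPM against 389, 745 and 2461 (log2 fold change 2.75 ± 0.37).

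Isogroup645 was the most abundant of all and did not follow choriogenin Ha. It took 160900 to 487340 total CPM in the vitellogenin-high fish, with fish 12 highest, and 85279 to 205490 in the other fish (log2 fold change 1.48 ± 0.30, edgeR adjusted p = 0.00761). The call was lost without any one of fish 2, 4, 5, 6, 7, 8, 10, 12, 13, 15 or 17, and also under upper-quartile factors (0.0102), without a count filter (0.0957) and with the pancreas enzymes as a covariate (0.135). Together with the named egg proteins the 5 isogroups made up 32.2% to 64.8% of all counts in the vitellogenin-high livers and 8.67% to 21.0% in the other livers. When these 5 were also taken out before scaling, 55 isogroups rose and 19 fell.

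**Figure D5:**
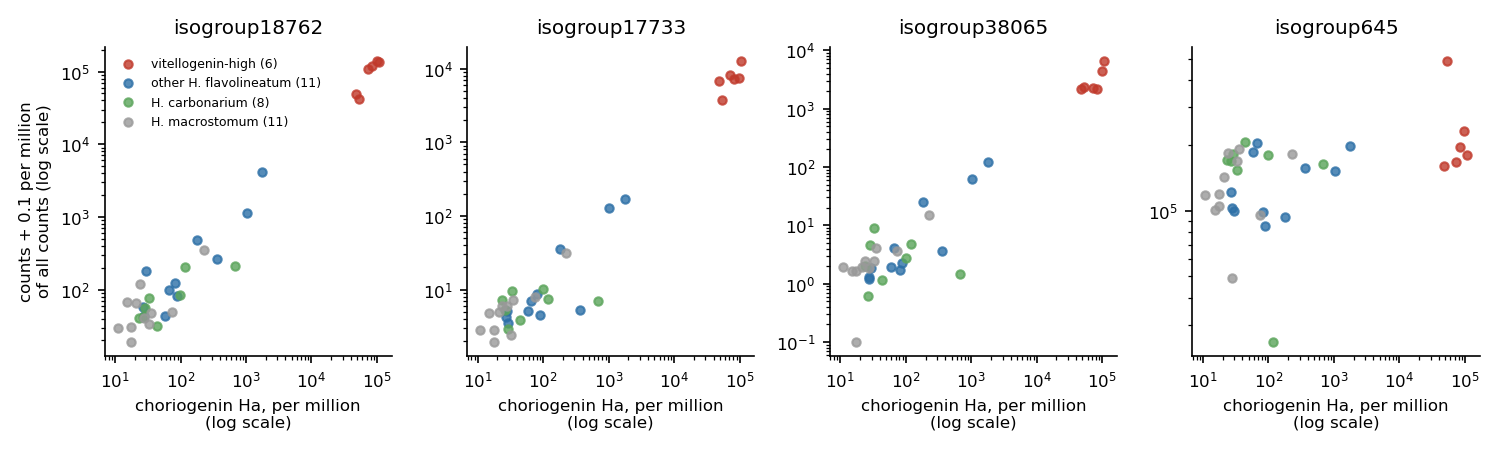
Total CPM of 4 abundant unnamed isogroups against choriogenin Ha in each of the 36 fish, both on log axes, with 0.1 added on the y axis. The 6 vitellogenin-high fish (red) sit at the upper right in the first 3 panels, with the other *H. flavolineatum* (blue) rising towards them along the choriogenin axis, while isogroup645 stays between 85279 and 487340 in all *H. flavolineatum*.

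Fish 11 and fish 2, the next below the threshold, were then looked at with groups they had no part in. When both were left out, the 6 vitellogenin-high fish against the remaining 9 gave 65 isogroups that rose and 18 that fell. Fish 11 lay above all 9 for 31 of the 65 (47.7%), against 10.1% of all 6106 isogroups, and below all 9 for 11 of the 18 (61.1%), against 14.1% of all. Fish 2 lay above all 9 for 19 of the 65 (29.2%, against 12.1% of all) and below for 4 of the 18 (22.2%, against 12.5%). The vitellogenin sum was 1774 total CPM in fish 11 and 535 in fish 2, while the remaining 9 had 11.2 to 105. For nothepsin these fish had 69.2 and 13.9 CPM, against at most 2.75 in the 9, and for AQP12 159 and 47.0, against at most 32.5. For PAPS1 they had 130 and 125 CPM, within the 87.6 to 250 of the 9. Fish 11 and fish 2 are each a single fish, so these shares carry no test. The 9 fish also helped to choose the 65 and the 18. A fish left out can therefore lie beyond the 9 more often in called isogroups, so the shares over all isogroups are not a fair base.

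In the 2 other species no liver reached the threshold, and the vitellogenin sums were 11.5 to 87.4 total CPM among *H. carbonarium*, and *H. macrostomum* had 9.09 to 114. On a scale common to the 36 fish, nothepsin was at 0 to 6.11 CPM in *H. carbonarium* and 0 to 4.19 in *H. macrostomum*, and S43A3 at 0 to 1.62 and 0 to 1.03. UDP-glucuronosyltransferase 2B4 had medians of 51.0 CPM in the vitellogenin-high fish and 323 in the other *H. flavolineatum*, and in the 2 other species the medians were 5.63 (*H. carbonarium*) and 32.4 (*H. macrostomum*). PAPS1 had medians of 25.2 and 151 CPM in these 2 sets of *H. flavolineatum*, against 16.3 and 52.1 in the 2 other species. Reads of *H. flavolineatum* were mapped to the transcriptome of another species, so levels between species are given side by side and not compared.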

How the data were processed

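TagSeq libraries from livers of 36 fish were analysed, 17 of them *H. flavolineatum*. The authors removed low-quality and duplicate reads with the FastX Tool Kit, clipped adaptors, mapped the reads to the *H. macrostomum* transcriptome with Bowtie2 (up to 5 matches per read) and deposited whole-number read counts for 58532 isogroups, without normalization. The submitters' processing notes also name DESeq2, and the versions are not given in the sources used here. No column was left out, and no 2 columns were identical.

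Fish were grouped by their own vitellogenin counts as the opening of the report states. Each column is a separate fish by the labels' numbering, so p-values measure the spread between these fish. The 12 egg protein isogroups were removed, filterByExpr (minimum count 10, minimum total 15) kept 6194 of the 50207 isogroups with a count, TMM factors were computed, and edgeR 4.0.16 with limma 3.58.1 in R 4.3.3 fitted a quasi-likelihood model to the 17 fish with the split as its term. The filter was given the split as its group, so an isogroup could pass it through the fish of 1 set alone. An isogroup was called at a Benjamini-Hochberg adjusted p under 0.01 over all tested isogroups. The SE is the size of the log2 fold change divided by the square root of F. DESeq2 1.42.0 was an alternative. The fit was checked on simulated counts. Values per fish were handled with Python 3.11.15, pandas 2.3.3, scipy 1.17.1 and matplotlib 3.10.9.

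Protein names were held for 3233 isogroups, 1763 of them from the study's lists of differences between species, 1206 from a part of its UniProt annotation and 264 from a part of its TrEMBL annotation. The names therefore cover a part of the isogroups and are not a neutral sample, and the 35 lists, patterns on these names, got no set test. The members, lists and rules were chosen with earlier results of these data known. The isogroups named are the 15 highest and 15 lowest called ones with a name (13 and 6 existed), per list the 2 isogroups of lowest p, the 2 highest and 2 lowest unnamed called ones, all egg proteins and all members of the lists of egg-linked liver proteins and steroid hormone carriers and receptors, with 5 abundant unnamed ones added after their values were seen. Not every one of these is given with its values. Alternatives were other scalings, filters, thresholds and tools, all 36 fish in 1 fit, the pancreas enzymes as a covariate, fish 11 and 2 left out and each fish left out in turn. The removal of abundant unnamed isogroups and of the 2 fish highest in myoglobin were added after seeing the data.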

Additional observations from a re-analysis of the deposited data

Results flagged for a closer look

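Within the 6 vitellogenin-high fish, 113 levels were screened for 1 fish far from the others. Of these, 18 had a gap to the nearest fish of more than 0.625 of the whole range. That cut is passed by about 1 in 20 sets of 6 values drawn from a normal distribution. The levels were not log-transformed and share fish and scaling, so 1 in 20 is not their chance rate and the 18 are a description. The group of 11 other fish was too large for the same screen.

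Fish 13 stood highest for the vitellogenin sum, at 51364 total CPM (the next fish had 37101), for its main part vitellogenin B (isogroup31593) at 33851 (next 22650), and for eukaryotic translation initiation factor 3 subunit A (isogroup2254) at 88.0 CPM (next 50.1). Fish 12 stood apart for 7 levels. It was highest for the minor vitellogenin B (isogroup32209), at 1049 total CPM (next 287), for isogroup645, at 847077 CPM (next 380188), for T-complex protein 1 subunit gamma (isogroup74716), at 1265 CPM (next 559), for a protein disulfide-isomerase (isogroup3137), at 75.6 CPM (next 27.8), and for the D site of albumin promoter binding protein (isogroup366), a clock-controlled transcription factor, at 60.9 CPM (next 13.04). It was lowest for sex hormone-binding globulin (isogroup685), at 191 CPM (next 400.1), and for 39S ribosomal protein L15 of mitochondria (isogroup3853), at 2.10 CPM (next 13.9). The scale of fish 12 is set by what is left beside isogroup645, whose 847077 CPM is relative to the scaled rest of that library.

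Fish 18 was highest for NADPH-cytochrome P450 reductase (isogroup200), at 48.7 CPM (next 22.5), very long-chain acyl-CoA synthetase (isogroup9), at 578 CPM (next 251), zinc-binding protein A33 (isogroup2572), at 562 CPM (next 357), signal recognition particle receptor subunit beta (isogroup355), at 24.4 CPM (next 10.7), and the unnamed isogroup23986, at 1.74 CPM (next 0.441). For the synthetase, A33 and isogroup23986, all of which fell, fish 18 lay within the range of the other fish. Fish 10 was highest for the unnamed isogroup74204, at 150 CPM (next 89.0), and for hydroxysteroid (11-beta) dehydrogenase 1 (isogroup38877), which converts cortisone and cortisol, at 33.7 CPM (next 8.58). Fish 3 had the highest sum of pancreas enzymes, at 11230 total CPM (next 5849).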

How the results depend on the processing

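Against 62 isogroups that rose and 20 that fell, an adjusted p under 0.05 gave 126 and 86, no count filter gave 215 and 105 (with the median log2 fold change of all tested at -0.23), and DESeq2's Wald test gave 134 and 103. Fewer were called with the pancreas enzymes as a covariate (33 and 5) and without fish 12 and 13, the 2 highest in myoglobin (34 and 4), a choice made after seeing the data that also leaves 4 vitellogenin-high fish. The cause of these differences was not tested. Counts within 1.5 times came from DESeq2 size factors (65 and 18), upper-quartile factors (55 and 18), egg proteins kept in the scaling (63 and 20), a mean count of at least 10 (64 and 19), all 36 fish in 1 fit (76 and 25), fish 11 and 2 left out (65 and 18) and the abundant unnamed isogroups also removed (55 and 19). Without 1 fish at a time, 48 to 73 rose and 9 to 26 fell. Of 2582 alternative values for the 93 isogroups under the naming rule, 2437 kept their side of the threshold, 108 lost a call and 37 gained one. Another 0 changed sign with a call in either fit, and sign changes of isogroups called in neither fit were not counted. Called under every alternative and left-out fish were PAPS1, nothepsin, UDP-glucuronosyltransferase 2B4, reticulocalbin 3, S43A3, the reticulon, eukaryotic translation initiation factor 4E binding protein 3 and AQP12. Of these, nothepsin, S43A3 and the reticulon passed the count filter only through the vitellogenin-high fish. PAPS1 and UDP-glucuronosyltransferase 2B4 passed it only through the other fish. Of 165 list medians under other scalings 5 took another sign: translation factors with upper-quartile factors, mitochondrial ribosomal proteins with DESeq2, and glucose and glycogen metabolism under 3 settings. No paired analysis was possible because the vitellogenin-high and other sets are made of different fish of 1 species and share no fish number. Depth limits the screen to the 6194 isogroups past the filter, of 50207 with a count.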

Other observations

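Lists not described above had few calls. The list for the making of fatty acids, triglycerides and sterols had 8 tested isogroups and a median of -0.49. The 1 called was choline/ethanolamine kinase, which serves the making of phosphatidylcholine and phosphatidylethanolamine instead. It rose, as did 1.26% of all named isogroups tested. Diminuto protein (isogroup225), a late enzyme of cholesterol synthesis, had 30.6, 42.3 and 72.9 CPM in the vitellogenin-high fish (lowest, median and highest), against 30.5, 83.4 and 172 in the other fish (log2 fold change -1.03 ± 0.34, edgeR adjusted p = 0.104). In the insulin-like growth factor axis 0 of 5 tested isogroups were called by edgeR and DESeq2 called 1 lower. At an unadjusted edgeR p under 0.05, 2 were lower, beside 15.5% of all named isogroups tested. DESeq2 called 46 of the 1030 named isogroups lower. Insulin growth factor binding protein 4 (isogroup13), which holds the growth factor in plasma, had 26.5, 55.5 and 115 CPM, against 82.3, 136 and 219 (log2 fold change -1.31 ± 0.33, edgeR adjusted p = 0.0304).

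Organic solute transporter subunit alpha (isogroup517), which exports bile acids and steroid conjugates from cells, had 153, 276 and 511 CPM in the vitellogenin-high fish, against 65.0, 145 and 267 in the other fish (log2 fold change 1.0 ± 0.29, edgeR adjusted p = 0.0617). The 60S acidic ribosomal protein P2 (isogroup20825), part of the ribosome's stalk, had 612, 680 and 878 CPM, against 301, 405 and 642 (log2 fold change 0.71 ± 0.20, edgeR adjusted p = 0.0536, DESeq2 adjusted p = 0.00417). Amino acid metabolism and transport, with 16 tested isogroups, had 0 calls by edgeR and by DESeq2 and a median of -0.33. At an unadjusted edgeR p under 0.05, 1 was higher and 6 lower, beside 9.03% and 15.5% of all named isogroups tested.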
